A study of Rattus norvegicus with 6 samples.

Results

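The ALK ligands and receptors examined here are 6 genes, Alkal1, Alkal2, Alk, Ltk, Ptn and Mdk, of the 43350 gene rows measured in rat dorsal root ganglia (DRG), and each was taken by its symbol as the row of protein-coding type. The libraries came from the ipsilateral lumbar DRG (L4-6) of male Sprague-Dawley rats, 3 with chronic constriction injury (CCI) and 3 sham rats, 11 days after surgery. In the CCI group loose ties of absorbable suture were placed around the left sciatic nerve, and in the sham group the nerve was exposed but not tied, so that both groups shared the anesthesia, the incision and the dissection. All rats carried no genetic change, each sample was the DRG of 1 rat according to the methods, and the sample labels give no age, list the sham treatment as none, and call the RNA that went into a library pooled. The methods give an age for the rats as acquired, before habituation, and state that rats with the expected behavior were taken into the groups. The question asked was which of these genes differed between CCI and sham ganglia.

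Anaplastic lymphoma kinase (ALK) and leukocyte tyrosine kinase (LTK) are related receptor tyrosine kinases of the insulin receptor superfamily. The small secreted proteins ALKAL1 and ALKAL2 bind and activate both of them, and activated ALK signals through adaptors to the RAS-ERK, PI3K and STAT3 pathways. Pleiotrophin (Ptn) and midkine (Mdk) are heparin-binding growth factors that were first proposed as ALK ligands and are also bound by the receptor phosphatase PTPRZ1, syndecans, integrins and LRP1. In the peripheral nervous system Alk is known from developing and adult sensory neurons, and pleiotrophin is known as a factor made by glia and neurons that promotes neurite growth.

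Values of single libraries are given in the order of replicates 1, 2 and 3 throughout. The deposited counts summed to between 75423546 and 87615743 per library, so a count of 3, taken as the detection limit, was worth 0.0342 to 0.0394 CPM (counts scaled to library size with edgeR's TMM factors). Sensory neuron markers were abundant in every library, with a summed level of 13139 to 16920 CPM over 10 of 10 genes. All 10 nerve injury markers, such as the transcription factor Atf3 and the neuropeptides Gal and Npy, were called higher in the CCI group, where 2.57% of all rows tested were. Their median log2 fold change was 3.66. The paper reports these genes as upregulated in the same libraries, so their rise here was known beforehand and is no separate check. Sham 1 stood apart in skeletal muscle markers, which summed to 395 CPM there and to 6.55 to 47.7 CPM in the other 5 libraries. Of these markers 5 of 7 were called lower in the CCI group, where 1.26% of all rows tested were. Without sham 1, CCI 2 or CCI 3 this was 1 of 7. On the first principal component CCI 1 lay farthest out (-77.4, the other CCI libraries -38.5 and -17.9, sham libraries 38.6 to 50.6). In bulk tissue, fewer cells of a type and less RNA per cell cannot be told apart.

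Sequence upstream of the annotated start was at hand for 4 of the 6 genes in RefSeq's GRCr8 assembly, namely Alkal2, Alk, Ltk and Ptn, and not for Alkal1 and Mdk. The 250 bases before the start are shown for Alkal2, the ligand that rose, for Alk, its receptor, and for Ptn, the ligand with the highest level, since AP-1 and CREB/ATF factors, 2 families that include injury-induced Jun and Atf3, bind known short motifs. Capitals mark matches on either strand to the AP-1 motif (TGANTCA) and to the 5-base core of the cAMP response element (CRE), TGACG, which is also the first part of the full element TGACGTCA. The windows lie at chr6:53223132-53223381 (plus strand), chr6:28631227-28631476 (plus strand) and chr4:66342333-66342582 (minus strand) and are written 5′ to 3′ on the gene's strand.
Alkal2: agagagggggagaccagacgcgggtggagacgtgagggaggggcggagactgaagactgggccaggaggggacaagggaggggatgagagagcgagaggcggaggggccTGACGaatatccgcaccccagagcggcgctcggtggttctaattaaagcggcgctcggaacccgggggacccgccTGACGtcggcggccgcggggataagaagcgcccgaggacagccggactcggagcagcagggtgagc
Alk: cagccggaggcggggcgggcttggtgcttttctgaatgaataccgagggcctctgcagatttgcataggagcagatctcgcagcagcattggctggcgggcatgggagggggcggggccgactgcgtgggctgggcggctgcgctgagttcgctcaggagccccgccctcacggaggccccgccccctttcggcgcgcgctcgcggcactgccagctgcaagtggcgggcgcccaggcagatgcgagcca
Ptn: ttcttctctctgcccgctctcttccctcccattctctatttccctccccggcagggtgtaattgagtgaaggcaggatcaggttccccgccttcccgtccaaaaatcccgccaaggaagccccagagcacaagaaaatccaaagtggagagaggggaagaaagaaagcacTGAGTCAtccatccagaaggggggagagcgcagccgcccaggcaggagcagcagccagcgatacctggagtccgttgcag
The Alkal2 window held the CRE core in 2 places, 141 to 137 and 66 to 62 bases before the start, and neither the full element nor an AP-1 match. The Ptn window held 1 AP-1 match, 80 to 74 bases before the start, and the Alk window held none of these motifs. Of the 33469 promoter windows of this length, 18.2% held the CRE core, 1.59% the full element and 6.34% an AP-1 match. These matches describe the letters of the windows, and binding was not measured here. Their GC content was 68.4% for Alkal2, 70.4% for Alk and 57.6% for Ptn.

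Alkal2, the secreted ligand of ALK and LTK, rose in the CCI group. Its row (chromosome 6, 49825469 to 49834912, plus strand, in the coordinates of the authors' table) had 386, 270 and 182 counts among CCI libraries against 104, 126 and 139 among sham libraries. Scaled for library size, this was 4.76, 3.35 and 2.39 CPM in the CCI libraries and 1.19, 1.59 and 1.68 CPM in the sham libraries. Every CCI library lay above every sham library, as was so for 8.63% of all rows tested, while the CCI libraries themselves spread 1.99-fold. Mean levels were 3.50 ± 1.19 CPM (CCI) and 1.49 ± 0.265 CPM (sham, SD, n = 3), a 2.35-fold increase (log2 fold change 1.24, standard error 0.30, 95% interval 0.52 to 1.95).
A gene was called when its log2 fold change was 0.58 or more in size and its p before adjustment lay below 0.05. Alkal2 met both conditions (unadjusted p = 0.00493, quasi-likelihood fit of edgeR), and it was 1 of the 4 tested genes, Alkal2, Alk, Ptn and Mdk, beside 2.57% of the 26663 rows tested that were called higher and 3.83% that were called in either direction. It did not pass an adjusted p under 0.05 over all rows (adjusted p = 0.230, quasi-likelihood fit of edgeR, Benjamini-Hochberg), as 0.0938% of rows did in either direction. DESeq2 gave an adjusted p of 0.00930 for the same change and was the only 1 of 16 other settings under 0.05. It passed 751 rows at that limit, against 25 in the reported fit. Over the 16 settings the adjusted p ranged from 0.00930 to 0.489. Within this range the call by size and unadjusted p held in 16 of 16 settings, with a log2 fold change of 0.95 without CCI 1 and 1.45 without CCI 3. An exact permutation test of the 3 CCI against the 3 sham values (two-sided) gave p = 0.1, the smallest that this design allows.

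**Figure D1:**
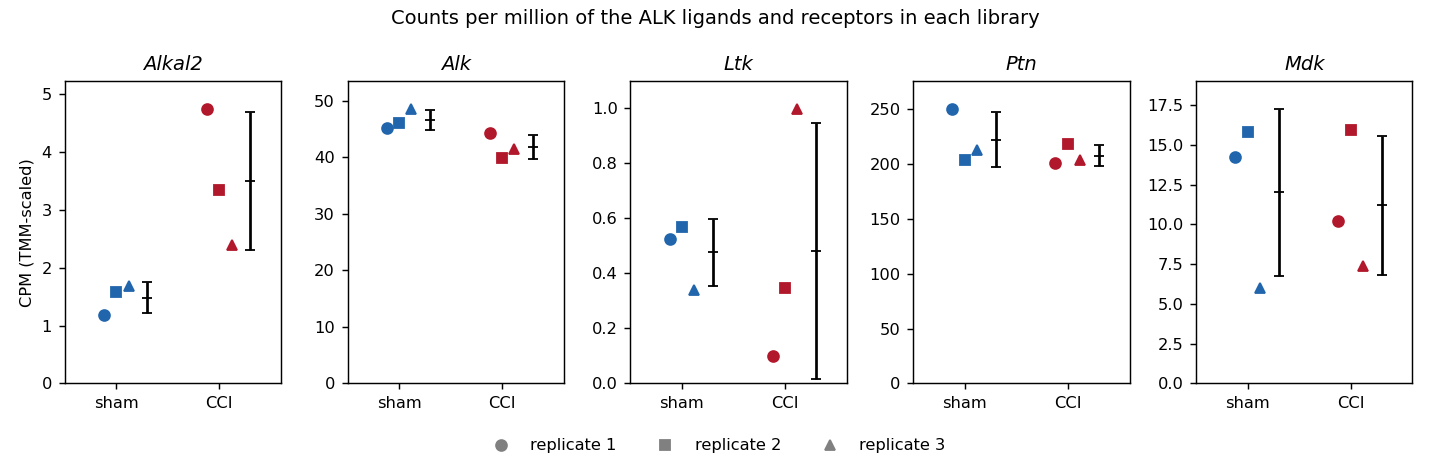
CPM of Alkal2, Alk, Ltk, Ptn and Mdk in each sham (blue) and CCI (red) library, with the mean and SD of each group (n = 3) in black and the y axis from 0 in each panel. Alkal2 lies at 2.39 CPM or more in the CCI libraries and at 1.68 CPM or less in the sham libraries, while the groups of Ltk, Ptn and Mdk overlap.

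Alkal1, the other ligand of this pair, had 0 counts in all 6 libraries. Its row (chromosome 5, 12896558 to 12925571, minus strand) is listed by the authors at the constant 0.0001 FPKM (fragments scaled by row length and library size) that stands in for a count of 0. A count of 0 allows at most 0.0342 to 0.0394 CPM per library, and below this level Alkal1 was not detectable at this depth. No fold change can be given for it.

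Alk, the receptor, stayed within a narrow range. The row (chromosome 6, 22687921 to 23205438, plus strand) had 3587, 3217 and 3151 counts among CCI libraries against 3969, 3649 and 4014 among sham libraries. In CPM these were 44.2, 39.9 and 41.4 in the CCI libraries and 45.2, 46.0 and 48.6 in the sham libraries. The groups did not overlap, every CCI library being below every sham library, which was so for 8.70% of all rows tested. The difference was small, with means of 41.9 ± 2.17 CPM and 46.6 ± 1.77 CPM (SD, n = 3) and a log2 fold change of -0.16 (standard error 0.07, 95% interval -0.31 to 0.00). It was not called (unadjusted p = 0.0520, adjusted p = 0.473 in the quasi-likelihood fit of edgeR, Benjamini-Hochberg), and its interval did not reach the limit of 0.58 in either direction.
Sensory neuron markers were lower in sum and mixed one by one. Their summed level was 13139 to 15021 CPM in the CCI libraries and 16207 to 16920 CPM in the sham libraries, and 4 of the 10 had a log2 fold change above 0. Of these 10 markers none was called (2 were called lower without CCI 2 or without sham 1), and their median log2 fold change was -0.18, beside 0.01 over all rows tested. Nefl, the light neurofilament chain, passed an adjusted p under 0.05 (log2 fold change -0.57, adjusted p = 0.0457 in the quasi-likelihood fit of edgeR, Benjamini-Hochberg) but lay just under the limit of size. Nefh, the heavy chain, had a log2 fold change of -0.55. Every CCI library was below every sham library for Nefl, Nefh and the transcription factor Isl1, as for 8.70% of all rows tested. For Tubb3, the neuronal beta-tubulin (log2 fold change 0.31), and Prph, the intermediate filament peripherin (0.25), every CCI library was instead above every sham library. This was so for 8.63% of all rows tested. The part of the neuronal markers in the value of Alk was not tested.

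Ltk, the second receptor, was near the lower end of what the libraries could measure. Its row (chromosome 3, 111553680 to 111560556, minus strand) had 8, 28 and 76 counts among CCI libraries against 46, 45 and 28 among sham libraries. The CCI libraries alone covered a 10.1-fold range of CPM and enclosed all sham values. Mean levels were 0.482 ± 0.465 CPM (CCI) and 0.477 ± 0.121 CPM (sham, SD, n = 3), and the mean FPKM of the 6 libraries was under the filter of 0.5, so that Ltk was not among the rows tested. Fitted without this filter, its log2 fold change was 0.01 with a standard error of 0.77 (adjusted p = 0.998 in the quasi-likelihood fit of edgeR, Benjamini-Hochberg). With CCI 3 left out the log2 ratio of the mean CPM values was -1.10, and with CCI 1 left out it was 0.50, so its direction rested on single libraries.

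**Figure D2:**
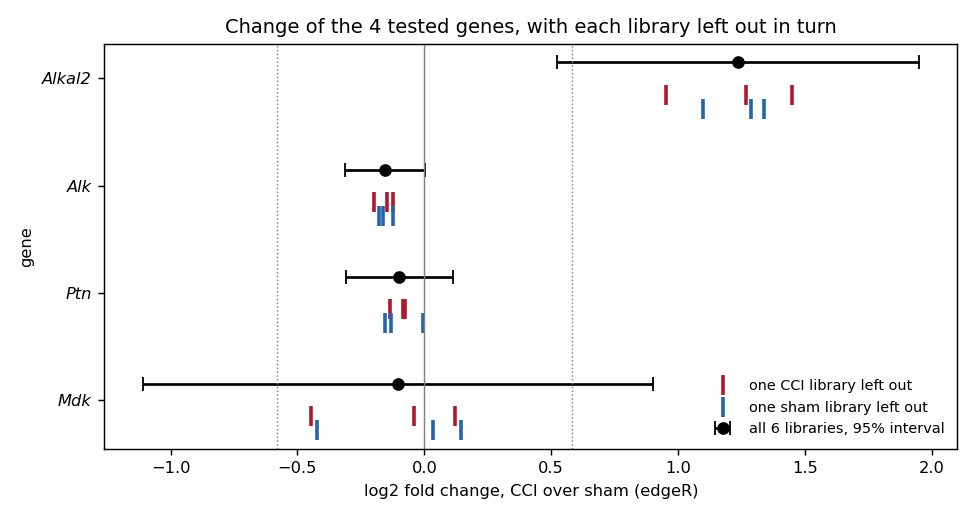
Log2 fold change of CCI over sham for the 4 tested genes (black, with the 95% interval of the edgeR fit) and with 1 CCI (red) or 1 sham (blue) library left out, with dotted lines at 0.58 in either direction. Alkal2 stays between 0.95 and 1.45, Alk and Ptn lie close to 0 within narrow intervals, and Mdk has an interval from -1.11 to 0.90.

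Ptn, which encodes pleiotrophin, had the highest level of the 6 genes and did not differ beyond its spread. The row (chromosome 4, 64239158 to 64330996, minus strand) had 16336, 17601 and 15485 counts among CCI libraries against 22009, 16188 and 17549 among sham libraries. Scaled, the CCI libraries measured 201, 218 and 204 CPM and the sham libraries 251, 204 and 213 CPM. The groups overlapped, and only sham 1 stood above the rest. The log2 fold change was -0.10 (standard error 0.09, 95% interval -0.31 to 0.11, adjusted p = 0.773 in the quasi-likelihood fit of edgeR, Benjamini-Hochberg) and became -0.00 without sham 1. This library was also the one with 395 CPM of skeletal muscle markers, and their part in its Ptn value was not tested.
A second row listed under Ptn (chromosome 4, 64304097 to 64309744, plus strand) lies inside the gene on the opposite strand and has no annotated transcript in the table. It held 2193 to 2746 counts per library, with 28.8 to 33.1 CPM in the CCI libraries and 27.6 to 31.3 CPM in the sham libraries. Its log2 fold change was 0.03 (95% interval -0.18 to 0.23). The library protocol keeps strand, but whether the counting used it is not stated, so reads of these 2 rows may not be fully separated.

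Mdk, which encodes midkine, varied widely within both groups. Its row (chromosome 3, 80841005 to 80843125, minus strand) had 830, 1287 and 563 counts among CCI libraries against 1248, 1256 and 498 among sham libraries. The CPM values were 10.2, 16.0 and 7.40 in the CCI libraries and 14.2, 15.8 and 6.03 in the sham libraries. CCI 3 and sham 3 were the lowest libraries of their groups, with a 2.16-fold range among CCI and a 2.63-fold range among sham libraries, and the groups overlapped. The log2 fold change was -0.10 (standard error 0.42, 95% interval -1.11 to 0.90, adjusted p = 0.961 in the quasi-likelihood fit of edgeR, Benjamini-Hochberg). This interval reached past 0.58 in both directions, so the precision for Mdk was low. The gene lies within a longer plus-strand row listed under Chrm4 (chromosome 3, 80835747 to 80873522), whose log2 fold change was -0.11 (95% interval -0.30 to 0.08).

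Compared per length, in the authors' FPKM, the genes kept the order Ptn, Mdk, Alk, Alkal2, Ltk and Alkal1 by group mean in both groups. Ptn had a level of 145 ± 6.61 FPKM in the CCI group and 154 ± 18.4 FPKM in the sham group (SD, n = 3), far above the next gene in every library. Mdk followed at 10.9 ± 4.26 and 11.6 ± 5.11 FPKM, and Alk at 5.30 ± 0.261 and 5.84 ± 0.185 FPKM. In the sham group the lowest Mdk library (5.77 FPKM) lay inside the range of Alk (5.71 to 6.05 FPKM), so these neighbours did not differ beyond their spread there, whereas in the CCI group the 2 genes did not overlap. Alkal2 had a level of 2.11 ± 0.710 FPKM in the CCI group and 0.883 ± 0.150 FPKM in the sham group, below Alk and above Ltk (0.196 ± 0.193 and 0.192 ± 0.0485 FPKM) in every library.
The level of Alkal2 was also set relative to that of its receptor. Within each library the FPKM of Alkal2 came to 51.3%, 39.9% and 27.5% of that of Alk in CCI 1, 2 and 3 and to 12.5%, 16.4% and 16.4% in sham 1, 2 and 3. The groups did not overlap in this ratio. That follows from the 2 genes taken singly, with Alkal2 higher and Alk lower in every CCI library, and is no further result. Receptor RNA exceeded ligand RNA in all 6 libraries. For the other pair, Mdk came to 5.07% to 10.2% of Ptn in the CCI libraries and to 3.96% to 10.8% in the sham libraries, and these ranges overlapped.

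**Figure D3:**
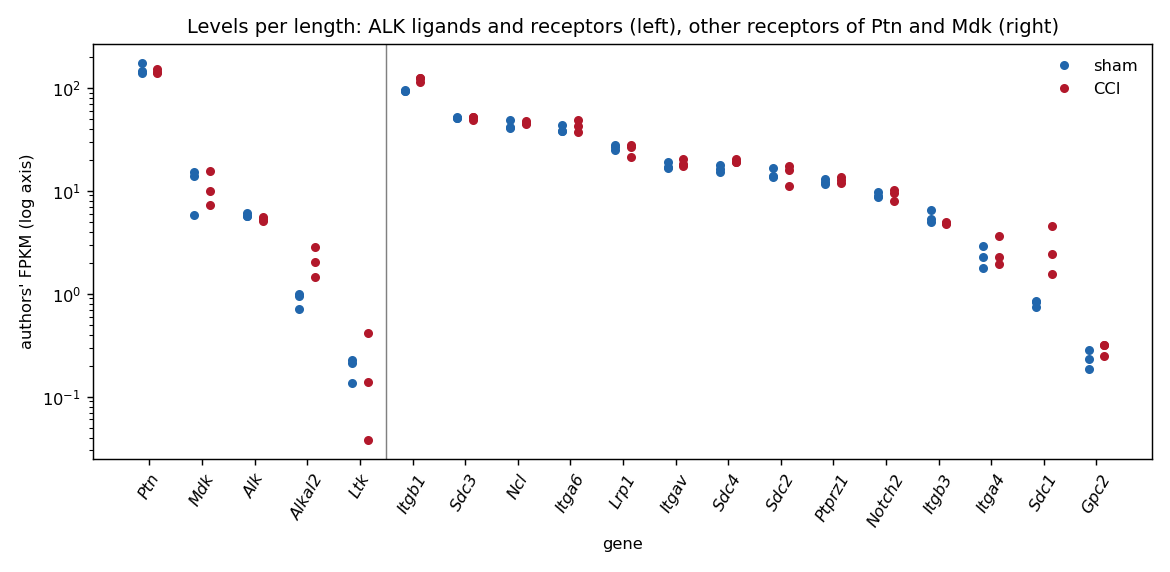
Levels in the authors' FPKM on a log axis for 5 of the ALK ligands and receptors (left of the line; Alkal1 is at 0 counts and not drawn) and for 14 other receptors of pleiotrophin and midkine (right), with sham libraries in blue and CCI libraries in red. Ptn lies between 140 and 175 FPKM, and Alkal2 and Sdc1 are the genes whose CCI points stand clear of the sham points by the largest distance on this axis.

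Other receptors of pleiotrophin and midkine were then examined, as a list of 14 genes, of which 13 were tested. One of them, Sdc1, was called higher, where 2.57% of all rows were, and none lower, and the median log2 fold change of the list was 0.06. Sdc1, the membrane heparan sulfate proteoglycan syndecan-1, measured 15.2, 8.18 and 5.18 CPM among CCI libraries against 2.85, 2.55 and 2.86 CPM among sham libraries. As with Alkal2, all CCI libraries lay above all sham libraries, as for 8.63% of all rows tested. CCI 1 was the highest CCI library, as in 34.9% of all rows tested. The log2 fold change was 1.79 (standard error 0.38, unadjusted p = 0.00279, adjusted p = 0.189 in the quasi-likelihood fit of edgeR, Benjamini-Hochberg).
Itgb1, the integrin beta-1 chain, measured 497, 502 and 454 CPM among CCI libraries against 385, 379 and 376 CPM among sham libraries. Its log2 fold change of 0.35 (fold 1.27, standard error 0.06) was under the limit of size and was not called. It had a p before adjustment of 0.000594 and an adjusted p of 0.109 (quasi-likelihood fit of edgeR, Benjamini-Hochberg). Groups did not overlap for 4 of the 13 tested receptors. Sdc1, Itgb1 and Sdc4 (log2 fold change 0.24) lay wholly above sham, as 8.63% of all rows did. Itgb3 (-0.23) lay wholly below, as 8.70% did. Ptprz1, the receptor phosphatase that binds both growth factors, measured 12.7 ± 0.826 FPKM in the CCI group and 12.2 ± 0.662 FPKM in the sham group (SD, n = 3), with a log2 fold change of 0.04 (95% interval -0.13 to 0.21). Sdc3, the neuronal syndecan, had a higher level at 51.0 ± 1.89 and 51.1 ± 0.651 FPKM and a log2 fold change of -0.02 (95% interval -0.14 to 0.10). Both intervals lay within 0.58 in either direction.

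Of 4 other kinases of the insulin receptor superfamily, 3 were tested and none was called. Igf1r, the receptor of insulin-like growth factor 1, had a log2 fold change of 0.03 (95% interval -0.09 to 0.15) and Insr, the insulin receptor, one of -0.05 (95% interval -0.20 to 0.10). Ros1 had 15 to 97 counts per library and was under the filter.
Among 32 adaptors and relays of ALK signaling, 31 were found and tested, with a median log2 fold change of -0.04. None was called higher and 2 were called lower, Frs2 and Mapk7, where 1.26% of all rows were called lower. The groups did not overlap for 9 of the 31, beside 8.63% of all rows wholly above sham and 8.70% wholly below. Among these 9, Pik3ca (log2 fold change 0.36), Jak3 (0.24), Stat3 (0.23) and Akt1 (0.13) lay above sham, and Frs2 and Sos1 (-0.13) below. Over the list, the log2 fold change was above 0 for 14 genes and below 0 for 17. Past an adjusted p under 0.05 lay 1 of the 31, lower in the CCI group, as did 0.0938% of all rows in either direction. Frs2, a docking adaptor of ALK and FGF receptors, measured 13.2, 13.7 and 15.3 CPM among CCI libraries against 65.9, 18.7 and 64.1 CPM among sham libraries, and sham 2 lay near the CCI values. The row of Mapk7, the kinase ERK5, had 0 counts in all CCI libraries and 1106, 926 and 1047 counts among sham libraries. With 3 counts per library as the limit, this row was at least 312-fold lower in the CCI group. It overlaps Mfap4 on the opposite strand. Whether reads of Mapk7 were assigned to another row was not tested, so the values describe this row. Mapk3, a kinase of the ERK pathway, had a log2 fold change of 0.04 (95% interval -0.11 to 0.19).
Genes induced by ERK signaling or dampening it formed a list of 13, all tested, of which none was called in either direction (median log2 fold change -0.14), while 1 was called higher without CCI 1 and 1 lower without CCI 2. Etv1, Etv4 and Etv5, ETS factors known as ERK-responsive genes, had values below those of sham in every CCI library, as 8.70% of all rows tested did. No other gene of the list had groups apart, and 5 of the 13 had a log2 fold change above 0. In CPM, Etv1 lay between 144 and 161 in the CCI group and between 194 and 211 in the sham group (log2 fold change -0.39, unadjusted p = 0.000734, quasi-likelihood fit of edgeR), under the limit of size. Fos, an immediate early gene, had 483, 1909 and 633 counts among CCI libraries against 674, 784 and 504 among sham libraries, which overlap.

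Markers of the cell types of the ganglion were set beside Alkal2. The nerve injury markers summed to 766, 541 and 470 CPM in CCI 1, 2 and 3 and to 189 to 195 CPM in the sham libraries, the same order of the CCI libraries as for Alkal2. Macrophage markers summed to 186, 160 and 125 CPM in CCI 1, 2 and 3 and to 89.6 to 117 CPM in the sham libraries. Of 10 macrophage markers, 6 were called higher (2.57% of all rows), none was at 0, and the median log2 fold change was 0.81. Nociceptor markers were not called in any of 9 tested genes, with sums of 2290 to 2605 CPM in the CCI and 2419 to 2793 CPM in the sham libraries. These sums overlapped, but single markers did not all do so. Every CCI library was below every sham library for 5 of the 9, among them Scn11a, Calca and Trpv1, and above for P2rx3. Of all rows tested, 8.70% lay wholly below and 8.63% wholly above. The median log2 fold change of the nociceptor markers was -0.15. Satellite glia markers summed to 2223 to 2312 CPM and 2109 to 2219 CPM, with none of 7 called. Schwann cell markers summed to 7059 to 9546 CPM and 8593 to 9769 CPM. Of these, 1 of 10 was called lower, where 1.26% of all rows were. This lower call was absent without CCI 1 or CCI 2, and 1 gene was called higher without CCI 2. Large-diameter neuron markers summed to 1813, 1693 and 1541 CPM in CCI 1, 2 and 3 and to 1774 to 1920 CPM in the sham libraries. Of these, 1 of 7 was called lower (Pvalb, with 0 without sham 1 and 2 without CCI 3), beside 1.26% of all rows. Fibroblast (0 of 6) and endothelial markers (0 of 4) had none called. T cell markers summed to 18.7, 18.3 and 13.8 CPM in CCI 1, 2 and 3 and to 10.1 to 11.3 CPM in the sham libraries. Only Cd4 of them, which macrophages also carry, was tested, and it was called higher, as 2.57% of all rows were. The part of any of these cell types in the change of Alkal2 was not tested.

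**Figure D4:**
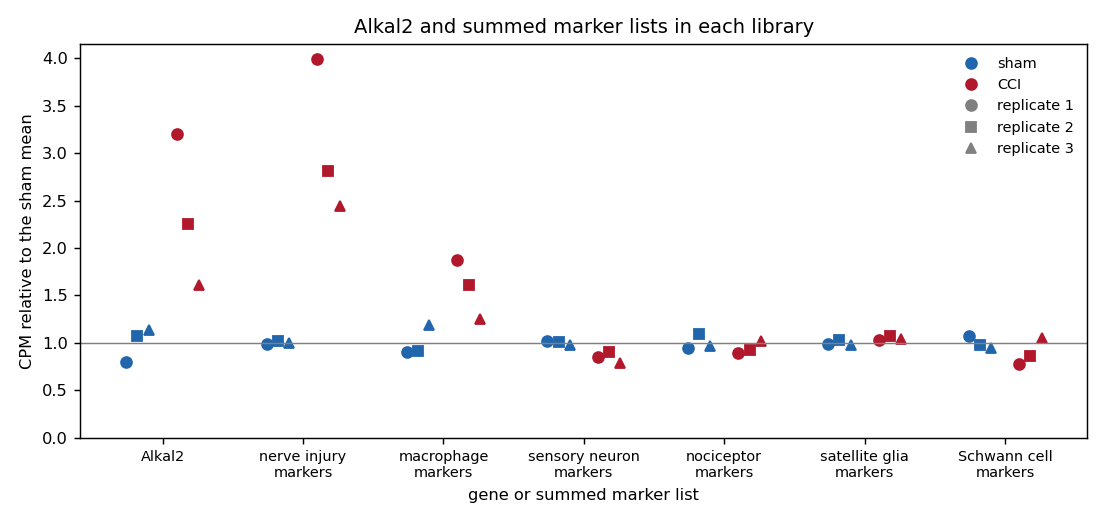
CPM of Alkal2 and of 6 summed marker lists in each library, divided by the mean of the sham libraries, with sham in blue and CCI in red and one symbol per replicate number. Alkal2, the nerve injury list (766, 541 and 470 CPM in CCI 1, 2 and 3) and the macrophage list (186, 160 and 125 CPM) share the order of the CCI libraries. The large-diameter neuron, T cell and skeletal muscle lists, which are not drawn, share it too. The sums of the nociceptor list overlap between groups, although 6 of its 9 tested genes taken singly do not. Of all rows tested, 8.70% lay wholly below sham and 8.63% wholly above.

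The protein-coding genes with the most similar profiles were found by the root mean square difference of log2 CPM over the 6 libraries, after centring each gene, among 12667 genes. For Alkal2 these were C1qb, a complement component made by macrophages, at 0.12, Npy2r, a neuropeptide Y receptor, at 0.12, and Adcyap1, the neuropeptide PACAP, at 0.15, where Alkal2 itself varied by 0.67 about its mean. C1qb had 1249, 1037 and 619 counts among CCI libraries against 429, 431 and 526 among sham libraries. Npy2r had 2281, 1593 and 1285 counts among CCI libraries against 779, 832 and 883 among sham libraries. Adcyap1 had 12494, 9984 and 7322 counts among CCI libraries against 4760, 4816 and 4949 among sham libraries. Their shared order of libraries with Alkal2 follows from how they were chosen, and CCI 1 was the highest CCI library in 34.9% of all rows tested.
The genes nearest to Mdk were Mitf, a transcription factor, at 0.12, and the unnamed loci AABR07031494 at 0.18 and AABR07012039 at 0.20, where Mdk varied by 0.55. Mitf had 662, 1050 and 537 counts among CCI libraries against 1096, 999 and 480 among sham libraries, with CCI 3 and sham 3 lowest as for Mdk. The genes nearest to Alk were Irf2bp1, Mrps2 and Paqr5, and those nearest to Ptn were Brcc3, R3hdm2 and Lrrcc1, at 0.02 to 0.04. Since Alk and Ptn varied by only 0.09 and 0.11 about their means, nearness to them describes genes that were nearly flat.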

How the data were processed

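RNA of the ipsilateral L4-6 DRG of 3 CCI and 3 sham rats was sequenced in paired ends after ribosomal RNA depletion. Per the methods and the submitters' processing notes, the authors aligned filtered reads with HISAT2 2.0 to a rat assembly given as V101, assembled them with StringTie 1.3.0, and estimated levels with StringTie and edgeR. The authors deposited raw counts per assembled gene row, and FPKM values in which a count of 0 is listed at 0.0001. The table names no other build, and its coordinates were not converted. Rows without a symbol (6849) took 5.37% to 5.72% of each library's counts and stayed in the fit.

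Here the counts were tested with edgeR 4.0.16 in R 4.3.3 (TMM factors, glmQLFit with a trended prior, glmQLFTest, no covariate) on 26663 rows whose FPKM averaged 0.5 or more, and p-values were adjusted by Benjamini and Hochberg over all of them. Calls needed a log2 fold change of 0.58 or more in size and a p below 0.05 before adjustment, as in the study. Standard errors are the log2 fold change divided by the root of F. Alternatives were relative log expression factors, DESeq2 1.42.0, edgeR's exact test, 2 other filters, protein-coding rows, limma 3.58.1 on log2(FPKM + 0.1) and log2(FPKM + 1), a block for the replicate number, each library left out, and, added after seeing the data, a prior without trend. The script was tested on simulated data. Where several rows carried a symbol, the protein-coding row, then the one with more counts, was taken. The genes named are the 6 genes, members of the gene lists, overlapping rows and the 3 most similar genes of each. Genes of the lists were named where an example was needed, and only some of those called were named. Itgb1, Itgb3, Sdc4, Pik3ca, Jak3, Stat3, Akt1, Sos1, Etv1, Etv4, Etv5 and Fos were named after their values were seen. So were Nefl, Nefh, Isl1, Tubb3, Prph, the nociceptor genes and the promoter motifs. The genes and lists were chosen with earlier results of these data known. Crkl, Col1a2, Pecam1 and Trac matched no symbol and were not analysed here. Python 3.11.15 with pandas 2.3.3, scipy 1.17.1 and matplotlib 3.10.9 was used for the exact tests and plots. No library was a copy of another, since pairs within a group had chi-square values of 57.4 to 84.3 for each degree of freedom. The p-values of edgeR's quasi-likelihood fit set a difference against the variation between the samples of a group, moderated by a prior taken over all rows.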

Additional observations from a re-analysis of the deposited data

How the results depend on the processing

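Alkal2 was called higher in 16 of 16 other settings, with log2 fold changes from 0.70 with limma on log2(FPKM + 1) to 1.45 without CCI 3. Alk, Ptn and Mdk were called in 0 of 16 each. The direction of Mdk turned without CCI 3 (0.12), sham 1 (0.03) and sham 2 (0.15), and ranged from -0.45 to 0.15 with single libraries left out. Its lowest value was that without CCI 2. The cause was not tested.

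Counts over all rows moved more. The rows called higher were 686 in the reported fit, 353 among protein-coding rows and 410 with limma on log2(FPKM + 1), and the rows called lower were 336, 115 and 161, the coding fit having fewer rows tested. Rows past an adjusted p under 0.05 numbered 25, against 751 with DESeq2, 231 with edgeR's exact test, 76 among protein-coding rows, 14 with the prior without trend and 6 to 61 with 1 library left out (6 without CCI 2, 8 without sham 1, 38 without CCI 3 and 61 without CCI 1). With a block for the replicate number 0 rows passed that adjusted p in edgeR's fit, although 617 were called higher and 318 lower by the limits on unadjusted p and size, and Alkal2 had a log2 fold change of 1.19 (adjusted p = 0.489, edgeR with the block). The block was not taken as a pairing, because the deviations of same-numbered libraries from their group means correlated across genes at -0.05 to -0.01. The block narrowed the standard error of Mdk from 0.42 to 0.18, its log2 fold change being -0.06. Of 480 list counts under other settings, 465 stayed within 1.5 times and 15 moved, the muscle list going from 5 called lower to 0 in both limma fits and to 1 without CCI 2, CCI 3 or sham 1. With 3 rats a group, changes near the limit of size could not be resolved for genes as variable as Mdk. A larger change was called in the reported fit for Frs2 (log2 fold change -1.82, standard error 0.45).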
